A study of Drosophila melanogaster with 8 samples.

Results

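The RNA polymerase II (RNAPII) landscape of control S2 cells was described from all peaks that the authors called on their LacZ RNAPII ChIP libraries against LacZ input. The peak list held 6885 regions, out of 14357 peak entries from both conditions of the series, and every one was matched by identical coordinates to an entry of the authors' annotated table, which gave its nearest gene, its feature and its concentration. The LacZ group consisted of 2 RNAPII immunoprecipitation libraries, set against 2 libraries of 10% input chromatin. The other 4 of the 8 libraries came from cells depleted of linker histone H1, and their values were not analysed here. The positions of their peak entries served only to derive gene strand, which also set the promoters whose summits could be placed. All cells were S2. The labels give the treatment of the controls as LacZ, the name of a bacterial gene that flies lack and a usual control target in knockdown work, and do not name the agent. Chromatin was fixed with 1.8% formaldehyde for 10 min and sheared by sonication, per the labels' protocols.

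S2 is an established Drosophila melanogaster line derived from embryos, with features of hemocytes, the fly blood cells. RNAPII assembles at the transcription start site (TSS), starts RNA synthesis and at many fly genes pauses a short way downstream until it is released by the kinase P-TEFb. ChIP with an antibody to RNAPII therefore tends to give a sharp peak just inside the gene at the promoter, with a weaker and broader signal over the gene body. The deposited values pool both LacZ libraries, so no spread between replicates can be given, no test was made, and every comparison is a description of these pooled libraries. The read depth of the libraries is unknown from the files.

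Promoters formed the main class of LacZ peaks. The annotation put 3424 of 6885 peaks (49.7%, exact Clopper-Pearson 95% interval 48.5 to 50.9%, counting error only) in its promoter class, and all 3424 had their centre within 1000 bp of a TSS. The class is a label of closeness to a TSS, so this too is a matter of labelling. Introns held 1809 peaks and intergenic sequence 1206. The remaining peaks comprised 227 at transcription termination sites (TTS), 101 in 5′ UTRs, 100 in exons, 12 in non-coding genes and 6 in 3′ UTRs. Several of the small classes lay close to a gene start as well. The centre was within 1000 bp of a TSS at 94.1% of the 5′ UTR peaks, at 67.4% of the TTS peaks and at 65.0% of the exon peaks. A repeat family was named at 2503 peaks (36.4%), and these accounted for 1443 of the intronic and 1060 of the intergenic peaks. Among the 4382 peaks without a repeat, 3767 (86.0%) were centred within 1000 bp of a TSS, whereas 6 of the 2503 repeat peaks (0.240%) were. The annotation names a repeat only at peaks it places in introns or between genes, so this contrast follows from the labelling and is no finding about repeats.

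Promoter peaks were also the more enriched ones. Fold enrichment, the authors' ratio of RNAPII pileup to the input-based background at the summit, had a median of 4.52 at promoters and 2.22 at all other peaks. The interquartile ranges were 2.78 to 9.97 at promoters and 1.73 to 3.43 elsewhere. The authors' log2 concentration, the mean scaled read level over the LacZ RNAPII libraries for a whole peak, had a median of 8.46 at promoters and 8.10 elsewhere. Divided by peak width, the log2 concentration per kb had a median of 9.39 at promoters and 9.05 elsewhere. Widths were similar, with a median of 517 bp at promoters and 487 bp elsewhere. Peaks without a repeat in introns (366, median fold enrichment 2.15) and between genes (146, median 1.86) lay below the promoter median as well.

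The peaks with the least support stood away from promoters. The lowest −log10 q of the list was 1.30, and the 5 peaks just inside that limit had fold enrichments of 1.06 to 1.31. They were assigned to CG31253, lncRNA:CR46268, lncRNA:CR45704, His2A:CG33808 and Su(Ste):CR42430, and 3 of them carried a retrotransposon annotation. Peaks outside the limit were not used here.

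The makeup of the RNAPII peaks differed between compartments of the dm3 genome. The shares are of called peaks and were not set against the number of genes or the length of each compartment. Chromosome X held 756 peaks, of which 70.2% were at promoters and 19.3% carried a repeat. The 4 large autosomal arms held 3784 peaks, with 74.1% at promoters and 14.2% with a repeat. On the small, largely heterochromatic chromosome 4, 48.6% of 37 peaks were at promoters. The placed heterochromatic scaffolds held 469 peaks, of which 3.41% were at promoters and 84.9% carried a repeat. The unplaced scaffolds U and Uextra held 1839 peaks, with 2.94% at promoters and 76.7% with a repeat. The heterochromatic scaffold of Y had 10 peaks, all with a repeat. Fold enrichment at promoters followed the same division, with a median of 3.06 for 18 promoters on chromosome 4, 2.69 for 16 on the placed heterochromatic scaffolds and 4.64 for 2805 on the autosomal arms.

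**Figure D1:**
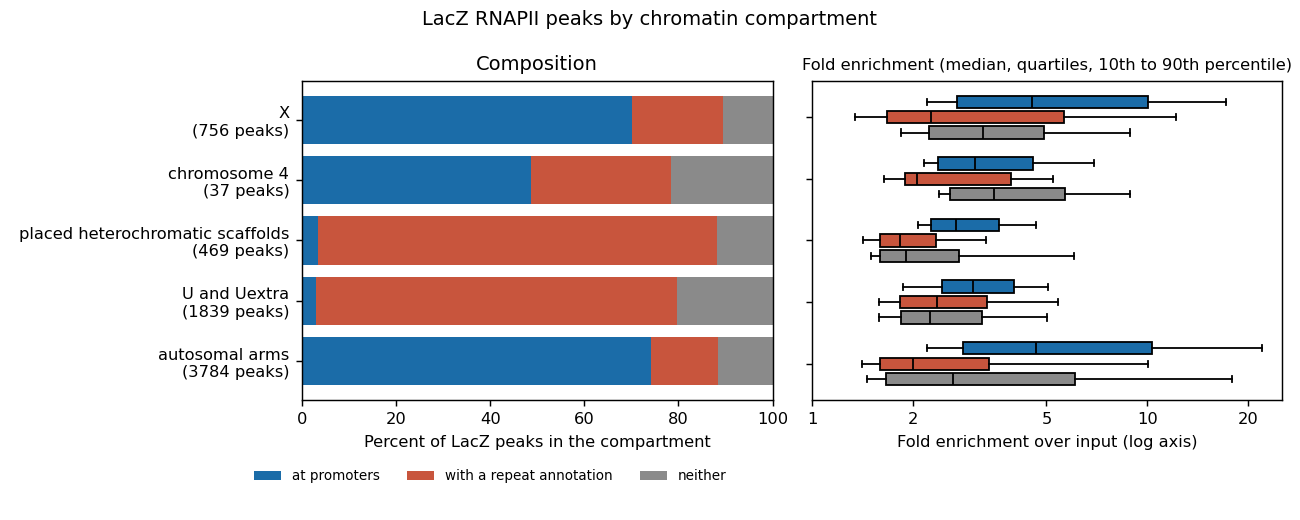
Left, the percent of LacZ RNAPII peaks in each genome compartment that lay at promoters, carried a repeat annotation or neither; right, fold enrichment over input (log axis) for the same classes, with lines for medians, boxes for quartiles and whiskers for the 10th to 90th percentile of peaks. Promoter peaks made up 70.2% of the peaks on X and 74.1% on the autosomal arms, against 3.41% on placed heterochromatic scaffolds, and had the higher fold enrichment on both X and the autosomal arms.

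Some genes on chromosome 4 and the placed heterochromatic scaffolds carried clear promoter peaks. On chromosome 4, ATPsynbeta, the catalytic beta subunit of the mitochondrial ATP synthase, had a fold enrichment of 21.1 and a log2 concentration of 9.14. The next by concentration there were Thd1, a DNA glycosylase (fold enrichment 5.38), myo, a TGF-beta family ligand (10.8), Rad23, a shuttle factor of the proteasome (6.91), and gw, the GW182 protein of miRNA silencing (3.67). On the placed heterochromatic scaffolds, CG40191 had the highest log2 concentration (9.20, fold enrichment 4.67). CG42402 there had a fold enrichment of 8.23, and vtd, the cohesin subunit Rad21, one of 5.35.

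The X chromosome, which in male flies is bound by the MSL dosage compensation complex, had slightly lower promoter levels than the autosomes on some measures and almost the same on others. The median log2 concentration was 8.32 at 531 X promoters and 8.49 at 2805 autosomal promoters, a difference of −0.17. Per kb of peak the medians were 9.32 on X and 9.41 on the autosomes, a difference of −0.09. The median fold enrichment was 4.52 on X and 4.64 on the autosomes. The values entering these ratios moved with the compartment, since the summit pileup had a median of 438 on X and 519 on the autosomes. The input-based background sat at its lowest value at 66.1% of X promoters and 37.1% of autosomal promoters. The part of input and of peak width in the difference of concentration was not tested. Of the dosage compensation list, the promoter peaks of msl-1 (fold enrichment 3.33) and mle (2.41) and of msl-2 (3.75), which encode MSL complex proteins, all lay under the median gene. The long non-coding RNA roX2 had a peak of fold enrichment 4.28 assigned to its TTS, 130 bp from its TSS, while roX1, msl-3, mof and Clamp had none.

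The summit of RNAPII sat just downstream of the TSS. Gene strand, which the annotation does not give, was derived from the signed distances of peak entries of both conditions. LacZ entries alone gave it for 88 peaks. Both conditions together gave it for 1956 promoter peaks on the chromosome arms, 58.3% of them. Most of these promoters therefore also had a peak entry from H1-depleted cells, and they are a selected part of the arm promoters. At the 1956 peaks the summit lay at a median of +48 bp from the annotated TSS, with quartiles of +35 and +63.5 bp. It was between 0 and +100 bp at 1643 peaks (84.0%) and between +20 and +80 bp at 1434 (73.3%), and it was upstream of the TSS at 212 (10.8%). This is the stretch in which promoter-proximal paused polymerase is known to sit in flies, although these data do not separate paused from initiating polymerase. Only peaks of the promoter class entered, and over all 3424 of them the peak centre had quartiles of +20 and +77 bp. The lower quartile of the centre was +111 bp for 5′ UTR peaks and +114 bp for TTS peaks. The downstream limit of the summit positions is therefore in part set by the annotation.

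The summit position was tighter at promoters with more RNAPII. Among the 489 peaks of highest fold enrichment the median was +42.5 bp, with quartiles of +34.5 and +52 bp. Among the 489 of lowest fold enrichment it was +53 bp, with quartiles of +33.5 and +72.5 bp. Width also moved with the position, and 21.1% of the 489 widest peaks had their summit upstream of the TSS, against 6.94% of the 490 narrowest. Gene groups differed in the median summit position as well. It was +40.5 bp at 39 ribosomal protein genes, +36.5 bp at 15 heat shock and chaperone genes and +36.75 bp at 10 immediate early genes. It was +65 bp at 19 proteasome genes and +69 bp at 7 genes for pausing and elongation factors. At 7 translation factor genes the median was −56.5 bp, with summits at −541.5 bp for pAbp, −558 bp for eIF4A and −383 bp for eIF3b. These 3 peaks were 995 to 1222 bp wide and spanned the annotated start to which they were assigned, but their summits lay away from it.

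**Figure D2:**
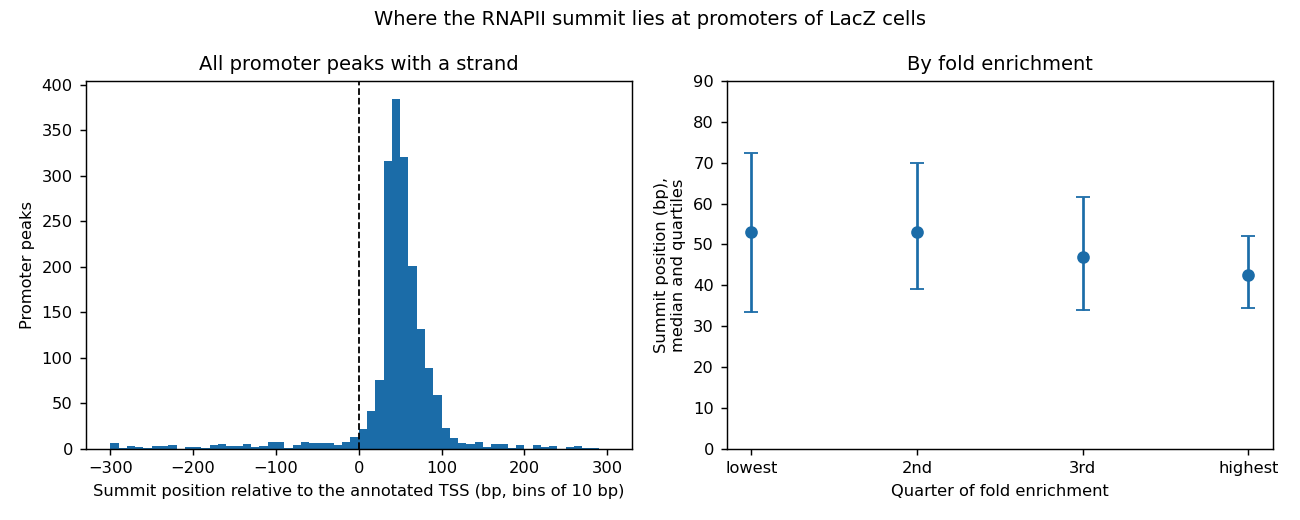
Left, the number of promoter peaks of LacZ cells by position of the RNAPII summit relative to the annotated TSS, in bins of 10 bp (dashed line, TSS); right, the median summit position (points) with quartiles (bars) in 4 equal groups by fold enrichment. Most summits fell between 0 and +100 bp, and the median was +42.5 bp in the highest group and +53 bp in the lowest.

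At the level of genes, 3354 promoter peaks on the chromosome arms named 3141 genes, of which 179 had several promoter peaks. These were 17.8% of 17684 genes in the RefSeq gene table, and 3053 of 13922 protein-coding genes, or 21.9%. Counts of list members with a promoter peak below are read beside these shares. Over the 3141 genes, taking for each the promoter peak of highest concentration, the median fold enrichment was 4.71, the median log2 concentration 8.48 and the median per kb 9.40. The annotation assigns a peak to 1 gene, so a gene that shares its promoter with a neighbour can be counted as having none.

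The 10 promoters of highest fold enrichment belonged to genes of varied roles. The U2 spliceosomal RNA gene snRNA:U2:34ABc led, with a fold enrichment of 84.2, a summit pileup of 10342 and a log2 concentration of 10.10. alphaTub84B, the main alpha-tubulin, and glec, gliolectin, both had a fold enrichment of 69.0. The pileup was 6073 at alphaTub84B and 6255 at glec, and both summits lay close to +40 bp. CG30015 (61.8) and lncRNA:CR31044 (58.7) followed. Below them came edl (57.3), a regulator of ETS factors in Egfr signalling, Piezo (55.6), a mechanically gated channel, and betaTub56D (55.4), the main beta-tubulin. vir-1 (54.9), a gene induced by virus infection, and bun (51.2), a TSC22-type transcription regulator, completed the 10 highest.

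Ranking by concentration gave another set, in which width weighed. Among promoter peaks on the chromosome arms without a repeat and outside the histone genes, the highest log2 concentration was 11.31 at snmRNA:430s, with a fold enrichment of only 3.11 over a width of 3755 bp within the histone gene array. Among the named coding genes Act5C, the main cytoplasmic actin of S2 cells, had 10.66 over 2239 bp with a fold enrichment of 48.8. The summit of this Act5C peak lay at −1077 bp from the assigned TSS. stg, the Cdc25 phosphatase that drives entry into mitosis, had 10.29 over 1362 bp with a fold enrichment of 44.5. hoip, a component of small ribonucleoproteins (10.69, fold enrichment 22.0), Shmt, serine hydroxymethyltransferase (10.21, 30.9), and ras, IMP dehydrogenase (10.20, 44.7), were also high on both scales. By contrast tsh, a homeotic zinc finger gene, had a log2 concentration of 10.49 with a fold enrichment of 3.77, and CG15864 had 10.11 with 2.59. Of these, Act5C, Shmt and ras lie on X.

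The measures of level ranked promoters in part differently, and concentration followed width. Spearman's rho between peak width and log2 concentration was 0.88 over all 6885 peaks and 0.94 over the 3424 promoter peaks, where every peak comes from the same pooled libraries and width enters the concentration itself. At promoters rho with fold enrichment was 0.81 for log2 concentration and 0.63 for log2 concentration per kb. Between summit pileup and log2 concentration per kb it was 0.82. The arm promoters were then sorted by fold enrichment. The 336 highest had 13.97 times the median fold enrichment and 14.04 times the median summit pileup of the 336 lowest. Fold enrichment made this sort and contains the pileup, so large ratios of both follow from it. The width of the 336 highest was 2.31 times as large, their linear concentration 3.04 times, and their linear concentration per kb 1.47 times. These unequal ratios therefore do not compare the ranges of the measures. Across arm promoters the 90th percentile was 9.57 times the 10th for fold enrichment and 3.34 times for linear concentration. It was 1.55 times for linear concentration per kb. The range of RNAPII levels among promoters was thus narrower by the authors' concentration than by fold enrichment. It was narrowest after the division by width made here, and the part of the processing in this was not tested.

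The summit pileup, a height at 1 position, exceeded the linear concentration of the whole peak at 5195 of 6885 peaks (75.5%), with a median ratio of 1.35. At the 336 arm promoters of highest fold enrichment, a measure that contains the pileup, the median ratio was 4.65, against 1.14 at the 336 lowest. The pileup comes from pooled libraries and the concentration is a mean over libraries, and their part in the ratio was not tested. In the intron of CG12535 on X, a peak of 278 bp had a pileup of 2039 and a log2 concentration of 6.85, a linear value of 115. Fold enrichment is therefore the scale given for genes here. Concentration per kb is set beside it for proteasome, snoRNA host and histone copy genes, whose place against the median gene depended on the scale. The list medians of translation factors (9.29 per kb), spliceosomal RNAs (9.285), antimicrobial peptides (9.37) and cell cycle genes (9.48) also changed side of the median gene (9.40 per kb).

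**Figure D3:**
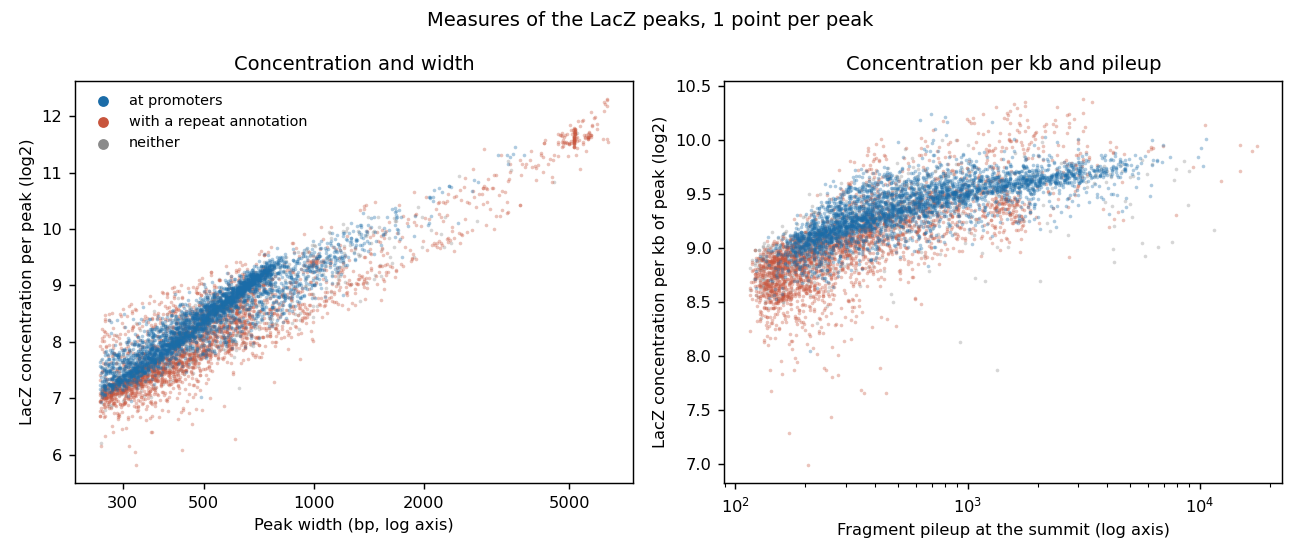
Left, the authors' log2 concentration per LacZ peak against peak width (log axis); right, log2 concentration per kb against summit pileup (log axis), with 1 point per peak, coloured by promoter, repeat or neither. Concentration climbed with width (rho 0.88), and concentration per kb spanned a narrow range while the pileup ran from 115 to 17625.

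Markers of hemocytes and of other cell types were described in these S2 cells. The lists were chosen with earlier results of these data known, so their values are no check of the label. Of 22 plasmatocyte and S2 marker genes, 16 had a promoter peak (72.7%, against 21.9% of all protein-coding genes). Their median fold enrichment was 14.8 against 4.71 over all genes with a promoter peak, and 14 of the 16 were above 4.71. Members of the basement membrane covered a wide range. LanA, a laminin subunit, had a fold enrichment of 35.1 and its partners LanB1 and LanB2 had 17.2 and 19.9. Ppn, papilin, had 31.4 and Col4a1, a collagen IV chain, had 16.8, while vkg, the other collagen IV chain, had 12.7 and SPARC 5.35. The 2 members below the median gene were crq, a scavenger receptor (4.23), and Fit2 (3.29). Among hemocyte regulators and receptors, Pvr, the receptor for PDGF- and VEGF-like ligands, had 33.1, zfh1 21.0, ush 11.9, Hml, hemolectin, 24.3, and eater, a phagocytosis receptor, 10.3. The GATA factor gene srp had a peak of fold enrichment 18.0, assigned to a TTS and centred 334 bp from a TSS. NimC1, Sr-CI, He, Nplp2 and gcm2 had no peak.

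Markers of other cell types had few promoter peaks. In all, 7 of 61 markers of neurons, glia, muscle, fat body, germ line, gut and trachea had a promoter peak, where 21.9% of all protein-coding genes did. Thus most genes of any kind lacked one, and the low counts are read beside that share. None of 12 muscle and none of 10 fat body markers had one. The exceptions were Syx1A (fold enrichment 28.7), a syntaxin that also acts outside neurons, and elav (5.01) of 12 neuron markers, nrv2 (7.56) of 6 glia markers, and esg (13.0) of 10 gut and trachea markers. Of 11 germ line markers aub (3.98), bam (2.77) and orb (2.05) had a promoter peak, all under the median gene. The blood cell types other than plasmatocytes had 3 of 9 markers with a promoter peak, with values of 18.1 for peb, 5.59 for the prophenoloxidase gene PPO3 and 1.78 for Drip. At sls, the titin-like muscle gene, the peak of fold enrichment 15.1 was an intronic copia element 5148 bp wide and not a promoter.

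**Figure D4:**
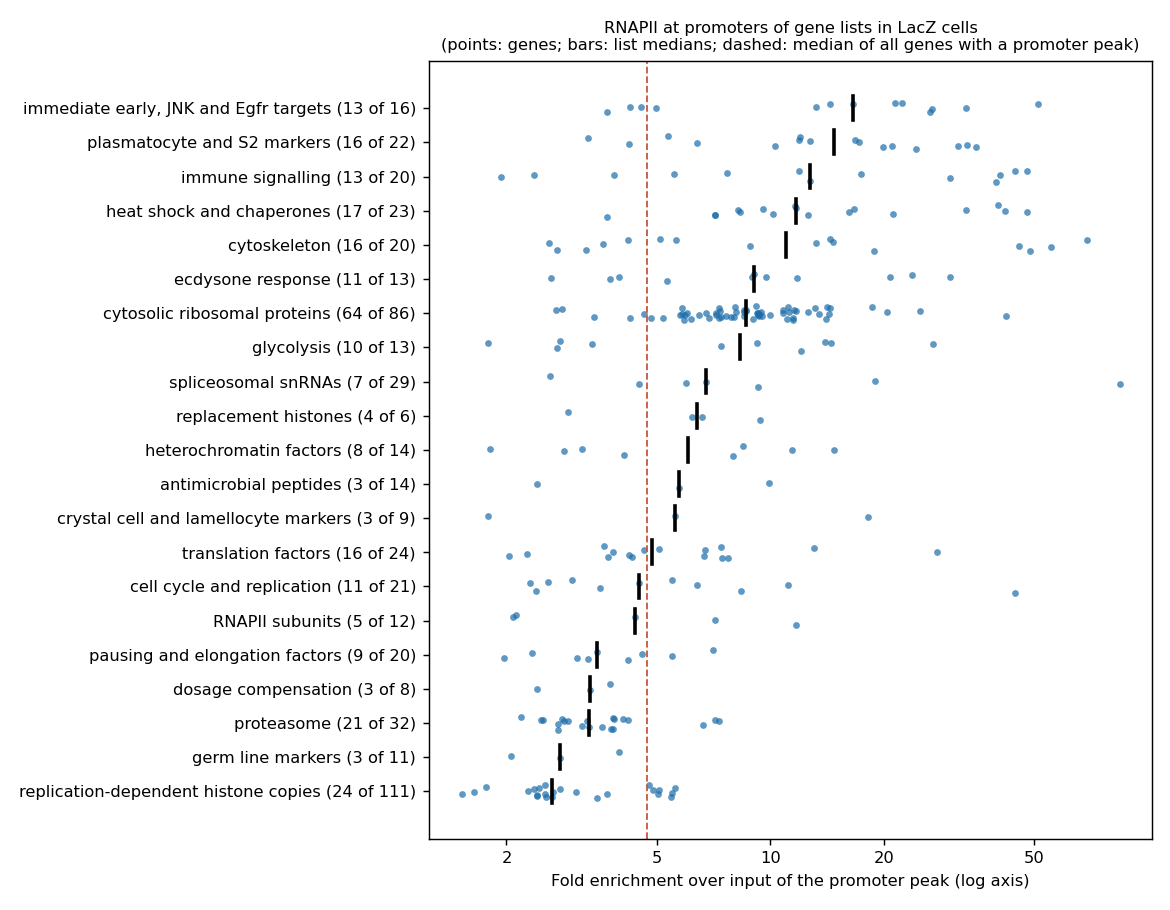
Fold enrichment over input (log axis) of the promoter peak of each gene in lists with at least 3 such genes, with list medians as bars, the median of all 3141 genes as a dashed line, and the number of members with a promoter peak in parentheses. Immediate early genes (median 16.6) and plasmatocyte markers (14.8) lay at the top, germ line markers (2.77) and histone copies (2.65) at the bottom.

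Growth and housekeeping genes divided by class. Of 86 genes for cytosolic ribosomal proteins, 64 had a promoter peak (74.4%, against 21.9% of all protein-coding genes). Their median fold enrichment was 8.64, and 59 of these exceeded the median gene. They ranged from 42.1 at RpL3 to 2.71 at RpS14b, and 72 of the 86 had a peak within 1000 bp of a TSS. Highest by log2 concentration were RpS12 (10.00), RpL3 (9.95), RpLP1 (9.82) and RpL28 (9.77). Translation factors had 16 promoter peaks among 24 genes and a median of 4.85, close to that of all genes. The highest of them was pAbp, the poly(A)-binding protein, at 27.7, and eIF4E1 (2.27), which binds the mRNA cap, and eIF4G1 (2.04), its scaffold, were the lowest by concentration. For eEF2, the translocation factor, a peak of fold enrichment 29.1 was assigned to an intron, 141 bp from the TSS. Glycolytic enzymes had 10 promoter peaks among 13 genes and a median of 8.32, led by Pgk (27.0), PyK (14.5) and Gapdh2 (13.95), with Ldh at 2.72.

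Proteasome and transcription machinery genes had list medians of fold enrichment below that of all genes. A promoter peak was present at 65.6% of proteasome, 41.7% of RNAPII subunit and 45.0% of pausing and elongation factor genes. The share over all protein-coding genes was 21.9%. Of 32 proteasome subunit genes, 21 had a promoter peak with a median fold enrichment of 3.303, within a range of 2.19 at Prosalpha7 to 7.30 at Prosbeta7. By fold enrichment 3 of the 21 exceeded the median gene, but by log2 concentration per kb 11 of the 21 did, with a list median of 9.40 that was almost the same as that of all genes. RNAPII subunit genes had 5 promoter peaks among 12, with Polr2A, which encodes the largest subunit, at 11.7, Polr2F at 7.12 and Polr2B, the next largest subunit, at 4.39. Polr2J had 2.08 and Polr2K 2.12. The list of pausing and elongation factors had 9 promoter peaks among 20 genes, with a median of 3.48. In it, Su(Tpl), the ELL elongation factor, had 7.06, Hexim, an inhibitor of P-TEFb, 5.48, Cdk12, a kinase of the RNAPII tail, 4.56, and Trl, the GAGA factor, 3.28. CycT, the cyclin of P-TEFb, had 3.08 and Spt5, a pausing and elongation factor, 2.34. Nelf-A, Nelf-E and TH1, subunits of the NELF complex that holds paused polymerase, had no peak.

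The cytoskeleton list spread widely. It had 16 promoter peaks among 20 genes and a median fold enrichment of 11.04. Beside alphaTub84B, betaTub56D and Act5C, shot, a spectraplakin that links actin and microtubules, had 45.6 and zip, the non-muscle myosin heavy chain, 18.8. At the other end, sqh, the light chain of the same myosin, had 3.61, Moe, moesin, 4.19 and twf, twinfilin, 2.72. For Act42A, the other cytoplasmic actin, the peak of 35.8 was assigned to its 5′ UTR.

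Stress and signal-responsive genes had some of the tallest peaks although no such treatment is named in the labels. Of 23 heat shock and chaperone genes, 17 had a promoter peak, with a median fold enrichment of 11.7, and 16 of the 17 exceeded the median gene. The constitutive chaperone Hsc70-4 had 48.0 and DnaJ-1, an Hsp40, 41.8. Among the inducible Hsp70 genes, which in flies are classic cases of promoter pausing, Hsp70Bb had 40.2, Hsp70Ab 33.1 and Hsp70Ba 21.1, whereas Hsp70Bbb had 8.21 and Hsp70Bc 7.13. These copies are near-identical, so reads could have been divided among them and their single values are uncertain. Hsp83 had a peak of 48.6 in an intron, 288 bp from its TSS.

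Immediate early genes and targets of the JNK and Egfr pathways had the highest median of the lists with at least 3 promoter peaks. Of 16 genes, 13 had a promoter peak with a median fold enrichment of 16.6, and all 16 had a peak within 1000 bp of a TSS. kay, the Fos subunit of AP-1, had a fold enrichment of 26.6, a pileup of 10673 and the highest log2 concentration per kb of the list, 10.01. Below bun at 51.2, aop, an ETS repressor, had 32.9, the matrix metalloprotease gene Mmp2 26.9, Gadd45 22.3 and hry, a bHLH repressor, 21.4. puc, the phosphatase that limits JNK, had 47.3 at a peak assigned to its TTS and centred 104 bp from a TSS. Jra, the Jun subunit of AP-1, had 3.94 and Hr38 3.70, which were low. The ecdysone response list had 11 promoter peaks among 13 genes and a median of 9.04, with EcR, the hormone receptor, at 29.9, E23, a transporter, at 23.7 and br, a zinc finger factor, at 3.75. Eip75B had 45.0 at its 5′ UTR, and usp, the partner of EcR, had no peak.

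Immune genes varied widely. The immune signalling list had 13 promoter peaks among 20 genes and a median of 12.7. The inhibitor cact had a fold enrichment of 47.8, the NF-kappaB factors Dif and dl 44.5 and 39.7, and the receptor Tl 40.7, all in the Toll pathway, whose adaptor Myd88 had 3.85. Of the Imd pathway, PGRP-LC, its receptor, had 12.7, Rel, its NF-kappaB factor, 7.66 and Fadd 1.93, and imd, Dredd, Tak1 and IKKbeta had no peak. The antimicrobial peptide genes, which both pathways induce, had 3 promoter peaks among 14 genes, at CecA1 (9.94), CecC (5.73) and Drs (2.42), a share near the 21.9% of all protein-coding genes.

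Cell cycle and chromatin genes were near the median gene. The cell cycle and replication list had 11 promoter peaks among 21 genes and a median fold enrichment of 4.48. After stg, its highest members were RnrS, ribonucleotide reductase (11.1), and CycD (8.35). PCNA, the replication clamp, had 6.41, and Cdk1 (2.57) and Cdk2 (2.30), the cell cycle kinases, were the lowest by concentration. The heterochromatin list had 8 promoter peaks among 14 genes and a median of 6.05, with the H3K9 methyltransferase gene G9a at 14.8, wde, a cofactor of another such enzyme, at 11.4, and Su(var)3-7, a partner of HP1, at 7.99. Replacement histone genes had 4 promoter peaks among 6, with His3.3B at 9.39, His2Av at 6.61, His4r at 6.21 and His3.3A at 2.90. The list of snoRNA host genes had peaks at Uhg3 (7.52) and Uhg8 (5.74) among 7, both above the median gene by fold enrichment and both below it by concentration per kb.

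The spliceosomal RNA genes that RNAPII transcribes had some of the tallest peaks. The list holds 29 spliceosomal RNA genes of any polymerase, of which 7 had a promoter peak, but 17 had a peak within 1000 bp of a TSS, 10 of them annotated at a TTS. Within 1000 bp, a peak was assigned to 19.2% of all genes and 23.5% of protein-coding genes. All 17 belonged to the 25 genes transcribed by RNAPII, where the median fold enrichment was 18.6, within a range of 2.60 to 99.3. The 4 genes for U6 and U6atac, which are transcribed by RNA polymerase III, had no peak. This division was made after the values were seen. The tallest peaks were at snRNA:U4:39B (99.3), snRNA:U2:34ABc (84.2), snRNA:U5:63BC (81.4) and snRNA:U1:95Ca (68.2). snRNA:U12, of the minor spliceosome, had 44.5. Many of these genes have near-identical copies, so the values of single copies, and the lack of a peak at one, are uncertain.

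Away from promoters, tall peaks without a repeat mostly lay beside a gene start too. On the chromosome arms, leaving out histone copies, 516 peaks had neither a promoter class nor a repeat. Of these, 281 were within 1000 bp of a TSS, with a median fold enrichment of 4.28, and 235 were farther away, with a median of 1.78. Df31, a decondensation factor of chromatin, had 76.7 at its TTS, 446 bp from the TSS, and snoRNA:U3:54Aa had 85.0. E(spl)mbeta-HLH, a Notch target, had 30.2. Farther than 1000 bp, Kdm2, a histone demethylase gene, had 2 intronic peaks of 34.2 and 29.0 beside its promoter peak of 40.2. The summit of that promoter peak lay at −764 bp from the assigned TSS. In an intron of tara, a peak of 14.9 lay 7439 bp from its TSS. Genes usually had a single peak: of the genes on the arms with peaks free of repeats, 3183 had 1, 218 had 2, 45 had 3 and 16 had 4 or more. The most were 8 at CG2201, near the base of arm 2L, followed by 6 each at Slmap, nolo and step on the same arm. Svil, supervillin, on 3L had 5, all of them promoter peaks, with fold enrichments of up to 25.8.

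Histone genes gave broad peaks of low fold enrichment in their array. The replication-dependent histone genes lie in a tandem array on 2L, where 45 peaks between positions 21401310 and 21554306 of dm3 were assigned to them. Their median width was 1454 bp and their median log2 concentration 9.91, but their median fold enrichment was 2.64, within a range of 1.52 to 9.41. The input-based background beside it was high, with a median of 278 pileup units in the array and 92.9 at arm promoters. The median summit pileup itself was 679 in the array and 505.5 at arm promoters. Another 454 peaks, on Uextra, were assigned to histone copies and had a median width of 475 bp. Of 111 histone gene copies in the table, 24 had a promoter peak (21.6%, near the 21.9% of all protein-coding genes). The median fold enrichment of these 24 was 2.65, and 7 of them exceeded the median gene. By log2 concentration per kb 23 of the 24 exceeded it, with a list median of 9.54. Single copies cannot be told apart by reads. A peak on Uextra assigned to His4:CG33905, which lies 81073 bp away in the annotation, had the highest fold enrichment of the whole list, 132.89, over 478 bp with a pileup of 11478 and a log2 concentration of 8.10.

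Repeat peaks had a median width of 485 bp, against 510 bp at peaks without a repeat, and included the peaks of highest concentration. The 2503 repeat peaks fell into 146 families, 52 of which had at least 10 peaks. LTR retrotransposons accounted for 1919 peaks, LINE elements for 348, satellites for 129 and DNA transposons for 74. The median fold enrichment was 2.35 at LTR elements, 1.67 at LINE elements, 1.94 at satellites and 2.02 at DNA transposons. The families with most peaks were DM176_I (265), DM297_I (178), the satellite SAR_DM (109), MDG1_I (103), DM1731_I (97) and Copia_I (97). LINEJ1_DM (83), DM176_LTR (66), BLOOD_I (64) and MDG3_I (60) followed. The 10 peaks of highest log2 concentration were all retrotransposons of the DM176_I, DM297_I and Stalker2_I families, up to 12.3 in an intron of Tlk, over 6333 bp.

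Families differed in how their RNAPII compared with input. Copia_I had a median fold enrichment of 8.68 and Copia_LTR one of 8.67, with the input-based background at its lowest value (86.4 pileup units) at the median peak of both. DM297_LTR had 9.59, against 3.72 for the internal part DM297_I. DM1731_I had the opposite makeup, with a median pileup of 1531 over a background of 785 and a fold enrichment of 1.92, while its terminal repeat DM1731_LTR had 4.12. By median log2 concentration the highest families with at least 10 peaks were Stalker2_I (10.42), DOC6_DM (9.28), BLOOD_I (8.96), DM297_I (8.94) and TRANSPAC_I (8.87). The peaks of these families were wide, with medians of 973.5 to 3046.5 bp, against 485 bp over all repeat peaks. Per kb their medians ran from 8.65 at TRANSPAC_I to 9.24 at Stalker2_I, against 9.01 over all repeat peaks. Copies of a family share sequence, so reads could be placed on any of them, and a peak at 1 copy cannot be read as RNAPII at that copy. The number of elements in the genome of these cells was not measured.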

How the data were processed

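RNAPII ChIP and 10% input libraries of LacZ control S2 cells (2 of each) were used as pooled by the authors. The submitters' processing notes list the build dm3 and the tools Bowtie2 (version 2.2.2), MACS (1.4.2), DiffBind (2.10.0) and DESeq2 without their settings, whereas the peak names say MACS2. Per the file headers, the deposited peak list gives a fold enrichment ratio over input, a −log10 q and a summit for each peak, and the authors' table gives the summit pileup signal, a Homer annotation and DiffBind's log2 concentration, a mean over LacZ RNAPII libraries. They are the authors' pooled values with no SD or n. The scaling of the libraries is not stated there, and depth is unknown.

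Peaks were matched by identical coordinates. Concentration per kb is the log2 concentration minus the log2 of width in kb. The input-based background is the pileup plus 1 divided by the fold enrichment, and lay within 0.1 of its lowest value, 86.38, at 40.8% of peaks. Strand came from pairs of table entries whose centres and signed distances gave the same TSS within 2 bp; entries of both conditions served for this lookup, by position only. The derivation was tested on simulated data. The RefSeq gene table paired older symbols; 3 list names had no match. The members, the 27 gene lists and the rule for naming genes (the highest by concentration and fold enrichment, and the 4 highest and 2 lowest of each list, or all of a short one) were chosen with earlier results of these data known. Further members named here were chosen after their values were seen. One name of the heterochromatin list matched a histone copy. Python 3.11.15, pandas 2.3.3 and scipy 1.17.1 were used. The alternatives are other TSS windows, a −log10 q of at least 5, and leaving out unplaced scaffolds or repeats. Libraries were assumed, not shown, to be separate cultures.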

Additional observations from a re-analysis of the deposited data

How the results depend on the processing

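The share of peaks at promoters (49.7%) was 54.8% when counted within 1000 bp of a TSS, 51.1% within 250 bp, 52.4% at a −log10 q of at least 5, 66.8% without U and Uextra and 78.1% without repeat peaks. The share with a repeat (36.4%) was 21.7% without U and Uextra and 34.6% at a −log10 q of at least 5. The median summit position (+48 bp) was +49.5 bp within 250 bp of a TSS and +53 bp by peak centre. By alternatives chosen after seeing the data, it was +43.75 bp with strands from LacZ entries alone (88 peaks) and +55 bp by the centre of all arm promoter peaks. The X minus autosome difference (−0.17) was −0.041 on log2 fold enrichment and −0.095 per kb, the second chosen after seeing the data. The rho of width with concentration (0.88) was 0.94 at promoters and 0.92 without repeats. Leaving out repeats, scaffolds or weak peaks removes peaks by construction; the cause of the other shifts was not tested. The counts of peaks (5046 to 6885) and of genes (3127 to 3396), and the median promoter concentration (8.44 to 8.46), stayed within 1.5 times or close to their values under the alternatives run. Of 25 gene lists with a promoter peak, 18 had a median above all genes by concentration, 17 per kb and 18 by fold enrichment. Single lists moved more: the share of members above the median gene was 23.8% by concentration and 52.4% per kb for the proteasome, 100% and 0% for snoRNA hosts, 87.5% by concentration and 29.2% by fold enrichment for histone copies, and 28.6% and 71.4% for spliceosomal snRNAs. No paired analysis was possible because the files hold values pooled per condition, and leaving out a replicate was not run for the same reason. The planned promoter motif shares were not run, since no promoter sequence was used here.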
